A study of Mus musculus with 10 samples.

Results

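MHC class I presentation genes were examined in peritoneal macrophages from C57BL/6 mice: H2-K1, H2-D1, H2-T23, H2-M2, B2m, Tap1, Tap2, Tapbp, Erap1 and Nlrc5. These 10 genes were picked by name for their roles in the pathway and make up 10 of the 39488 rows of the gene count table. Bulk RNA-seq was done on 10 libraries, 5 from a control group and 5 from an ox-LDL group, and the series describes them as biological replicates. All mice were wild type and 8 weeks old, and the cells were collected from the peritoneal cavity on day 3 after a thioglycollate infusion, which draws monocyte-derived macrophages into the cavity. Control cells are labelled untreated. Cells of the ox-LDL group were primed with lipopolysaccharide (LPS), a bacterial cell wall component, at 100 ng/ml and then given oxidized low-density lipoprotein (ox-LDL), a modified lipoprotein found in atherosclerotic plaques, at 100 ug/ml for 16 hours. No library received LPS alone under these labels, so the effects of LPS and of ox-LDL cannot be told apart, and "ox-LDL" below means both agents. A description in the study leaves room for LPS having been given to the control cells too, in which case the fold changes would be those of ox-LDL added to LPS.

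MHC class I molecules carry short peptides from proteins made inside the cell to its surface, where CD8 T cells and natural killer cells read them. A heavy chain pairs with the light chain beta-2 microglobulin in the endoplasmic reticulum, the TAP transporter brings in peptides cut by the proteasome, tapasin holds the empty complex beside the transporter, and an aminopeptidase trims the peptides to length. In macrophages the pathway is known to be induced by interferons and by bacterial products, through the transcription factors IRF1 and NF-kappa B and through the class I transactivator NLRC5.

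The promoters are shown for 5 of these genes because the class I heavy chain and beta-2 microglobulin promoters are known to carry the elements that those factors bind, and because H2-M2 and Erap1 held more than 1 match to a single element. Windows of 270 bases, 250 before and 20 after the RefSeq transcript start (table build GRCm38.p6), were present for 8 of the 10 genes, and each was found once in mm9, the build of the files; Tap2 and Nlrc5 had no entry. Each sequence reads 5′ to 3′ along the gene, and capitals mark matches on either strand to GAAANNGAA (a core that IRF factors bind), GGGNNTTCC (NF-kappa B), GATTGG (an inverted CCAAT box) or TGACG (a CRE core). The windows lie at chr17:34137273-34137542 (minus strand), chr17:35399789-35400058 (plus), chr2:121973173-121973442 (plus), chr17:37620480-37620749 (minus) and chr13:74777051-74777320 (plus).
H2-K1: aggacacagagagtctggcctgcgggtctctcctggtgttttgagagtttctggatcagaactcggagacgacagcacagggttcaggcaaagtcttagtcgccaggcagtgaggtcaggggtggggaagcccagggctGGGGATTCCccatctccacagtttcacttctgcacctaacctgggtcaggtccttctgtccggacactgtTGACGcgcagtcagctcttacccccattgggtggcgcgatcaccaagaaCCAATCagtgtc
H2-D1: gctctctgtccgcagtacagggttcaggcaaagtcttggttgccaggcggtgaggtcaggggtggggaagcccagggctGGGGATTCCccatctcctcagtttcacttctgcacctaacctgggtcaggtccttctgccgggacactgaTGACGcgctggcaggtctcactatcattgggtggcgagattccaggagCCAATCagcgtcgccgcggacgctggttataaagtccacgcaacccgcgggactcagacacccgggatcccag
B2m: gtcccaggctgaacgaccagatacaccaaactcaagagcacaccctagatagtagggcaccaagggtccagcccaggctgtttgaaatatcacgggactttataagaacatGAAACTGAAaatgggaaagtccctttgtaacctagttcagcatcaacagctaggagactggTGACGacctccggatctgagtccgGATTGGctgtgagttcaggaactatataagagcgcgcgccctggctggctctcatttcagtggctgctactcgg
H2-M2: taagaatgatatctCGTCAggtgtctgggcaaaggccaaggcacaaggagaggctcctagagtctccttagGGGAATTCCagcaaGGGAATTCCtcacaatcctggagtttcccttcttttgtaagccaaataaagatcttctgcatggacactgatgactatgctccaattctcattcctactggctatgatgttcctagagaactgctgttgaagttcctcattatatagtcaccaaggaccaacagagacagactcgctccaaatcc
Erap1: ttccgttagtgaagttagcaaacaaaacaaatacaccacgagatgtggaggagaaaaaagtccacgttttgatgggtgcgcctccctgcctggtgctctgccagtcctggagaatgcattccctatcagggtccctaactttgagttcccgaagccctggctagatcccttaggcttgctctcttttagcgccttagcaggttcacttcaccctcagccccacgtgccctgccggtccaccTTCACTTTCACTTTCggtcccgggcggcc

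H2-K1 and H2-D1 shared a run of 47 identical bases that includes the NF-kappa B match GGGGATTCC. In both windows the first base of that match stood 70 bases before the first base of the TGACG match. The CCAAT match followed 49 bases later in H2-K1 and 48 bases later in H2-D1. It reads CCAATC along both genes, so it is not inverted there, and in H2-K1 it covers bases 9 to 14 after the start. The letters ATTGG between TGACG and CCAATC in both windows were not marked, since the search asked for GATTGG. B2m held the IRF match GAAACTGAA at 139 bases before the start, with TGACG and GATTGG downstream of it. H2-M2 held the NF-kappa B match GGGAATTCC at 2 places, and Erap1 held the IRF match GAAAGTGAA at 2 overlapping places next to the start, on the minus strand. Of the 8 windows, the IRF letters were found in 3, the NF-kappa B letters in 3, the CCAAT letters in 5 and the CRE letters in 5. Among all 32851 windows of the same length, the shares with a match were 7.76%, 5.4%, 15.2% and 19.4%. A match is a string of letters and not evidence that a factor was bound. Elements with other letters were not searched for, so a window without a match may still hold a site for the same factors. This includes the H2-K1 and H2-D1 windows, which had no match to the IRF letters.

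Library totals were 20094647 to 20687289 counts in the control group and 19257131 to 20358017 in the ox-LDL group. The macrophage markers Lyz2, Cd68, Adgre1, Csf1r and Cd14 were present in every library. Markers of T and NK cells summed to 0.605 to 1.65 CPM (counts scaled to the library total) in controls and 0.0522 to 1.05 in ox-LDL libraries, with Cd3e at 1 count or fewer in each. Markers of mesothelial and stromal cells summed to 16.5 to 52.7 CPM in controls and 65.7 to 162 CPM in ox-LDL libraries, mostly Dcn, and these ranges did not overlap. The neutrophil markers ran from 7.41 to 14.3 CPM in controls and from 13.4 to 90.8 CPM in ox-LDL libraries, nearly all of it S100a8. These ranges overlapped. Of the 6 neutrophil markers with a row, 1 was higher (Camp) and 1 lower (Ltf) without overlap, both at few counts. Dendritic cell markers and B cell markers also overlapped between the groups. The part of other cells in the results was not tested. Replicate 2 of the ox-LDL group stood apart: its normalization factor was 0.593, and its chi-square per gene against the other 4 ox-LDL libraries was 430 to 483, whereas it was at most 195 between any other pair of that group. Values that moved by over 1.5 times without it are also given without it.

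Of the 10 class I presentation genes, 7 rose in the ox-LDL group, all 10 had a positive fold change, and the median log2 fold change was 2.06. The 7 passed the test (edgeR's quasi-likelihood test, Benjamini-Hochberg adjusted p below 0.01) in the higher direction, as did 9.4% of the 12654 genes tested. None passed in the lower direction, as 5.35% of genes tested did, and none was lower at an unadjusted p below 0.05 in edgeR or was called lower by DESeq2 or limma-voom. In 8 of the 10 genes the lowest ox-LDL library exceeded the highest control in TMM-normalized CPM, which held for 11.6% of genes tested. The median log2 fold change of all genes tested was 0.0966. The 7 that rose were H2-M2, Tap1, Nlrc5, Tapbp, Tap2, H2-K1 and Erap1, and they stayed past the threshold in all 22 alternative fits. H2-D1, H2-T23 and B2m, which did not pass, were together with H2-K1 the 4 most abundant per length. In bulk RNA, a change in the number of expressing cells and a change in the RNA per cell cannot be told apart.

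**Figure D1:**
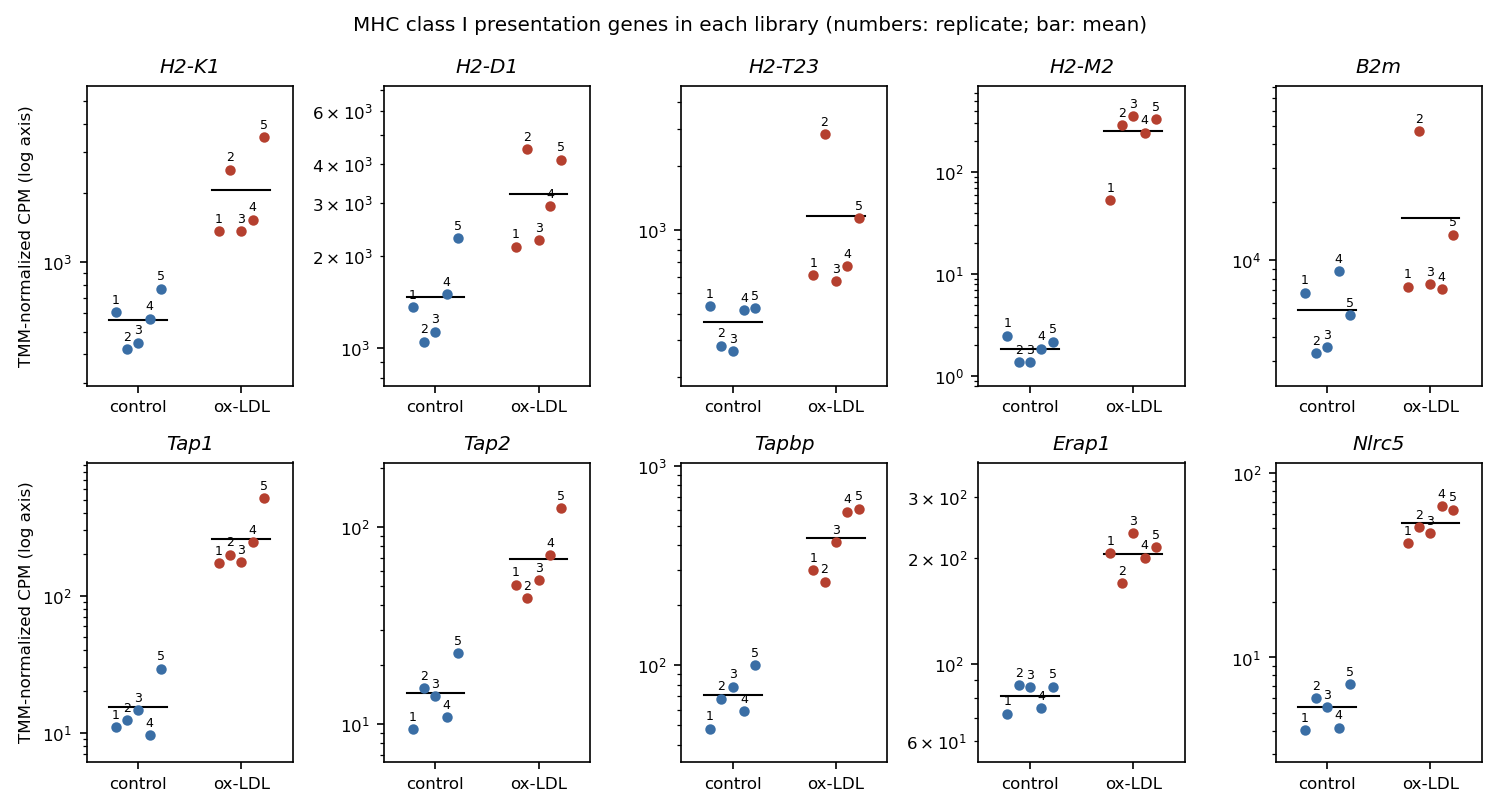
CPM of each gene, TMM-normalized, on log axes, in the 5 control libraries (blue) and the 5 ox-LDL libraries (red), with replicate numbers beside the points and the mean as a bar. The groups overlap in the panels of H2-D1 and B2m and in no other panel, and ox-LDL replicate 2 lies far above its group in B2m (46992 CPM) and H2-T23 (2830.25 CPM).

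The classical heavy chains H2-K1 and H2-D1 present peptides to CD8 T cells. H2-K1 (NCBI gene 14972) lies on the minus strand of chromosome 17 at chr17:34132962-34137278 in mm9. Its TMM-normalized level was 608, 420.0, 447, 569.9 and 767 CPM in control replicates 1 to 5. In ox-LDL replicates 1 to 5 it was 1362, 2526, 1361, 1531 and 3492 CPM. The groups did not overlap, and replicates 2 and 5 were the highest of the ox-LDL group. This is a log2 fold change of 1.87 ± 0.34 (SE, 5 libraries per group; edgeR adjusted p = 0.00169).

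H2-D1 (NCBI gene 14964) lies on the plus strand of the same chromosome at chr17:35399675-35404444. Control levels were 1362, 1053, 1133, 1504 and 2295 CPM. Levels in ox-LDL replicates 1 to 5 were 2152, 4479.6, 2260.3, 2919.8 and 4148 CPM. The groups overlapped because control replicate 5 exceeded ox-LDL replicates 1 and 3, and the other 4 controls lay below every ox-LDL library. The log2 fold change was 1.12 ± 0.32 with an edgeR adjusted p of 0.0227, short of the threshold. Leaving out control replicate 5 gave 1.33 on the log2 scale (edgeR adjusted p = 0.013), and leaving out both that library and ox-LDL replicate 2 gave 1.16 (edgeR adjusted p = 0.00543). Over the 22 alternatives its adjusted p ran from 0.00201 to 0.0683.

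Within a library, the balance between these heavy chains shifted towards H2-K1. The ratio of H2-D1 to H2-K1 in FPKM (fragment counts scaled by gene length and library total, which allows levels of different genes to be compared) was 2.09, 2.34, 2.37, 2.47 and 2.79 in the controls. In the ox-LDL libraries it was 1.47, 1.65, 1.55, 1.78 and 1.11. The highest ox-LDL ratio stayed below the lowest control ratio. The log2 ratio fell by 0.69 (two-sided exact permutation test over 5 and 5 libraries, p = 0.00794, adjusted p = 0.0119 over the 3 ratios examined), and this p is the smallest such a test can give. These genes share sequence: 8.87% of the 50-base windows of the longest coding H2-K1 transcript, and 14.3% of those of H2-D1, occur in another gene's transcript. How the counting divided reads that fit several genes is not stated, which leaves this ratio uncertain to that extent.

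H2-T23 and H2-M2 are nonclassical heavy chains. H2-T23 (NCBI gene 15040, chr17:36166718-36169800, minus strand) encodes Qa-1, which shows leader peptides of other class I chains to receptors on NK cells. In the controls it measured 435, 283, 267, 418 and 427 CPM. In the ox-LDL libraries it measured 608, 2830.25, 571, 670.5 and 1137 CPM. The groups did not overlap, but ox-LDL replicate 2 was 4.43 times the median of the other 4 ox-LDL libraries. Its log2 fold change of 1.67 ± 0.45 had an edgeR adjusted p of 0.0174. Leaving out ox-LDL replicate 2 lowered the fold change to 0.99 on the log2 scale and brought the edgeR adjusted p to 0.00896, past the threshold. Windows shared with other transcripts made up 14.8% of its longest coding transcript, with H2-Q2 as the gene sharing most.

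H2-M2 (NCBI gene 14990, chr17:37617796-37620497, minus strand) encodes a heavy chain at the far end of the H2 region. In controls it had 45, 32, 32, 36 and 50 counts, which is 2.49, 1.37, 1.37, 1.85 and 2.17 CPM. In the ox-LDL group it had 1224, 3376, 7212, 5075 and 5532 counts, which is 53.2, 289, 352, 243 and 330.4 CPM. Every ox-LDL library was at least 21.4 times the highest control, and ox-LDL replicate 1 was the lowest of its group. With a log2 fold change of 7.10 ± 0.53 (edgeR adjusted p = 7.34e-06), it had rank 36 among all genes tested. Its transcript shared 1.33% of its 50-base windows with others. The 2 GGGAATTCC matches printed above lie in its window.

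B2m (NCBI gene 12010) encodes the light chain that every one of these heavy chains needs, and lies on chromosome 2 at chr2:121973422-121978819. Controls held 6755, 3286, 3524, 8748 and 5158 CPM. The ox-LDL libraries held 7269, 46992, 7466, 7038 and 13559 CPM. Control replicate 4 was above 3 of the ox-LDL libraries, and ox-LDL replicate 2 was 6.38 times the median of the other 4. The log2 fold change was 1.58 ± 0.58 with an edgeR adjusted p of 0.0644. Without ox-LDL replicate 2 it was 0.64 (edgeR adjusted p = 0.14). B2m made up 0.371% to 0.845% of all counts in control libraries and 0.764% to 1.12% in 4 of the ox-LDL libraries, but 2.74% in ox-LDL replicate 2. The ratio of H2-K1 to B2m in FPKM had a median of 0.0615 in controls and 0.0906 in ox-LDL libraries. The log2 difference of that ratio was 0.57 (two-sided exact permutation p = 0.222, also after adjustment), and it was 0.96 without ox-LDL replicate 2 (exact p = 0.0159).

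Tap1 and Tap2 encode the chains that pair to form the peptide transporter. Tap1 (NCBI gene 21354, chr17:34324498-34334170, plus strand) measured 10.95, 12.4, 14.5, 9.63 and 29.3 CPM in controls. In ox-LDL libraries it measured 172, 199, 176, 244 and 509.9 CPM. Replicate 5 was the highest in both groups, and the lowest ox-LDL library was 5.88 times the highest control. Tap1 rose by 4.08 ± 0.43 on the log2 scale (edgeR adjusted p = 5.76e-05). The Psmb9 gene overlaps it on the other strand, with 280 to 2859 counts per library, and whether the counting used strand is not stated, so reads in the overlap cannot be told apart.

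Tap2 (NCBI gene 21355, chr17:34340472-34353266, plus strand) rose less. It measured 9.46, 15.2, 13.9, 10.8 and 22.9 CPM in controls. It measured 51.0, 43.6, 53.6, 71.7 and 124 CPM in ox-LDL libraries. The groups did not overlap on this scale, and replicate 5 was again the highest of each. In FPKM the groups overlapped, with ox-LDL replicate 2 at 10.88 and control replicate 5 at 11.17. Tap2 rose by 2.25 ± 0.33 on the log2 scale (edgeR adjusted p = 5.24e-04).

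The transporter chains moved by different amounts. The FPKM ratio of Tap1 to Tap2 was 0.973, 0.682, 0.881, 0.747 and 1.07 in controls. It was 2.83, 3.82, 2.75, 2.85 and 3.43 in ox-LDL libraries. No ox-LDL ratio came near the control range. The log2 ratio rose by 1.86 (two-sided exact permutation test, p = 0.00794, adjusted p = 0.0119). The difference ran from 1.77 to 1.94 when any library was left out. The overlap of Psmb9 with Tap1 leaves this ratio uncertain to that extent, and Psmb9 rose too (log2 fold change 2.34). On the other strand, Gm15821 and Gm20496 overlap Tap2, and neither was matched to a row of counts.

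**Figure D2:**
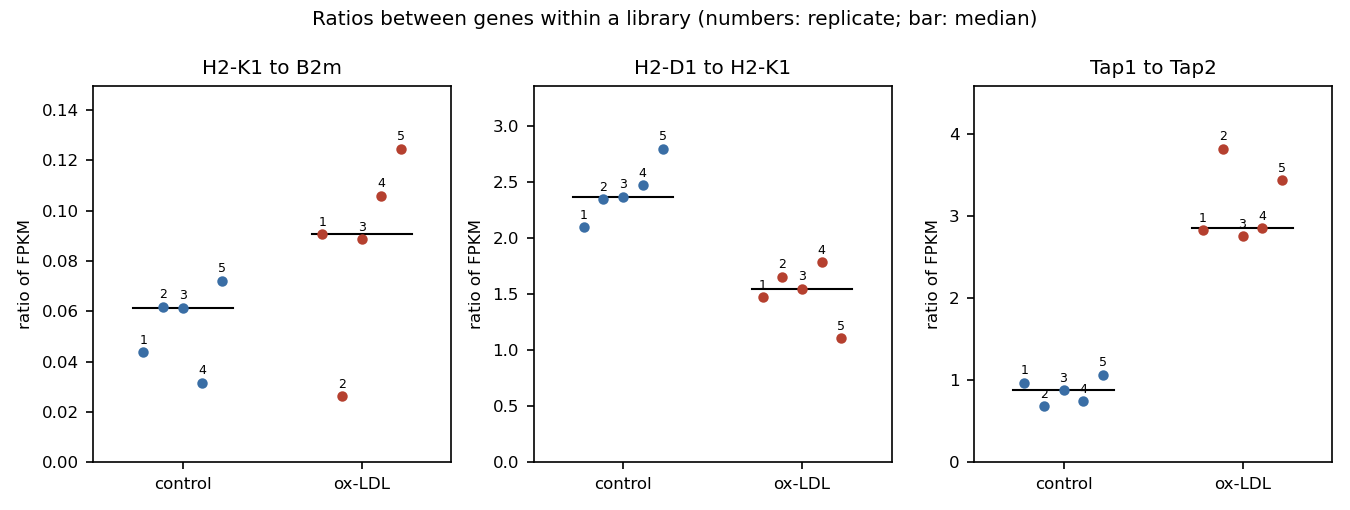
Ratio of the FPKM of 2 genes within each library (linear axes from 0, points numbered by replicate, bar at the median) for H2-K1 to B2m, H2-D1 to H2-K1 and Tap1 to Tap2. The groups separate in the last 2 panels, and in the first panel ox-LDL replicate 2 lies below every control while the other 4 ox-LDL libraries lie above them.

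Tapbp (NCBI gene 21356, chr17:34052844-34066235, plus strand) encodes tapasin, which bridges TAP and the empty heavy chain. Controls were at 48.1, 67.9, 78.0, 59.0 and 99.9 CPM. The ox-LDL libraries were at 300.2, 263, 417, 592 and 613 CPM. All ox-LDL libraries were above all controls, and ox-LDL replicate 2 was the lowest of its group. Tapbp rose by 2.63 ± 0.31 on the log2 scale (edgeR adjusted p = 1.20e-04). The overlapping Zbtb22 gene had 143 to 561 counts per library.

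Erap1 (NCBI gene 80898, chr13:74777320-74829983, plus strand) encodes the aminopeptidase that trims peptides in the endoplasmic reticulum. It was at 72.0, 86.7, 85.6, 74.7 and 86.1 CPM in controls. It was at 207, 170.1, 236, 201 and 215 CPM in ox-LDL libraries. Both groups were tight, with SDs of 7.07 and 24.1 CPM around means of 81.0 and 206 CPM. The separation depended on the scale. In unscaled counts it was lost, with ox-LDL replicate 2 at 1986 counts, against 2026 and 2001 in control replicates 2 and 3. In FPKM it was narrow, with ox-LDL replicate 2 at 26.78 and the highest control at 26.18. The log2 fold change of 1.35 ± 0.17 (edgeR adjusted p = 1.65e-04) passed the test, while the larger changes of H2-T23 and B2m did not.

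Nlrc5 (NCBI gene 434341, chr8:96996663-97051172, plus strand) encodes the transactivator of class I genes (its locus is typed as a lincRNA in the older annotation used for positions), which acts on their promoters through factors bound to elements such as the CRE core and the CCAAT box. Controls held 73, 141, 126, 81 and 165 counts, or 4.04, 6.03, 5.39, 4.17 and 7.17 CPM. The ox-LDL libraries held 960, 593, 966, 1380 and 1057 counts, or 41.7, 50.8, 47.1, 66.0 and 63.1 CPM. The lowest ox-LDL library was 5.82 times the highest control. The log2 fold change was 3.32 ± 0.22 (edgeR adjusted p = 4.9e-06).

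**Figure D3:**
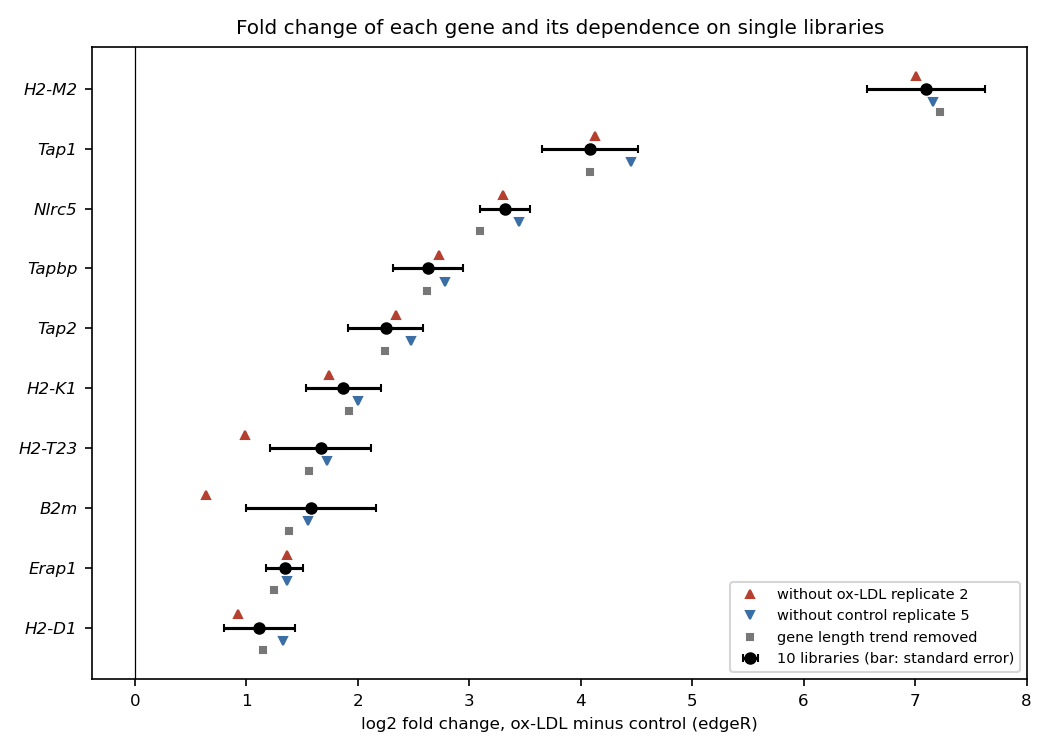
Log2 fold change, ox-LDL minus control, for each gene in the edgeR fit to all 10 libraries (black, bar of 1 standard error), without ox-LDL replicate 2 (red), without control replicate 5 (blue) and with a correction for gene length (grey). B2m moves from 1.58 to 0.64 and H2-T23 from 1.67 to 0.99 without ox-LDL replicate 2, while the other 8 lie between 0.93 (H2-D1) and 7.01 (H2-M2) there.

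The libraries did not rank alike for every gene. Control replicate 5 was the highest control for 6 of the 10 genes, by up to 2.51 times the median of the other controls in Tap1. In the ox-LDL group, replicate 5 was the highest for 4 genes and replicate 2 for 3. Replicate 2 was highest for B2m, H2-T23 and H2-D1, whose lengths as implied by the files are 718, 1169 and 1586 bases. It was the lowest of its group for Tap2, Tapbp and Erap1, whose lengths are 2320, 2573 and 3764 bases. The remaining genes did not follow that order of lengths. Replicate 2 had rank 2 in H2-K1 (1481 bases) and rank 3 in H2-M2 (1251 bases), Tap1 (2770 bases) and Nlrc5 (6187 bases). After correction of each library for a trend with gene length, all 10 genes passed the edgeR threshold. In that fit B2m had a log2 fold change of 1.38 (adjusted p = 0.00103), H2-D1 one of 1.15 (0.00439) and H2-T23 one of 1.56 (6.54e-04). The part of gene length in the difference of replicate 2 was not otherwise tested.

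Ranked by FPKM, B2m was the most abundant of the genes in both groups, at 7806 ± 2594 (SD, n = 5) in controls and 17328 ± 11515 in ox-LDL libraries. H2-D1 followed at 979 ± 372 and 1775 ± 284 FPKM, then H2-K1 at 398 ± 106 and 1220.1 ± 409 FPKM and H2-T23 at 325 ± 59.9 and 789 ± 356 FPKM. The other 6 genes were all below 30 FPKM on average in controls. H2-M2 had rank 9 there, at 1.52 ± 0.33 FPKM, with a range that overlapped that of Nlrc5 (0.9 ± 0.31), although it was above Nlrc5 in every control library. In the ox-LDL group H2-M2 had rank 5 at 181 ± 93.1 FPKM, and its range overlapped that of Tapbp (162 ± 71.0). Tap1 went from 5.99 ± 3.51 FPKM, next to Tap2 at 6.72 ± 2.95, to 85.7 ± 41.5 FPKM, above Tap2 at 27.7 ± 12.3. Erap1 was at 22.7 ± 4.51 and 52.2 ± 15.8 FPKM, and Nlrc5 was the lowest of the 10 in the ox-LDL group at 8.32 ± 2.83 FPKM. Ranges of neighbours overlapped for H2-K1 and H2-T23, Tapbp and Erap1, Tap2 and Tap1, and H2-M2 and Nlrc5 in controls. In the ox-LDL group every pair of neighbours overlapped except B2m with H2-D1 and H2-T23 with H2-M2. Together the 10 genes took 0.591% to 1.1% of all counts in controls and 1.36% to 3.37% in ox-LDL libraries.

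**Figure D4:**
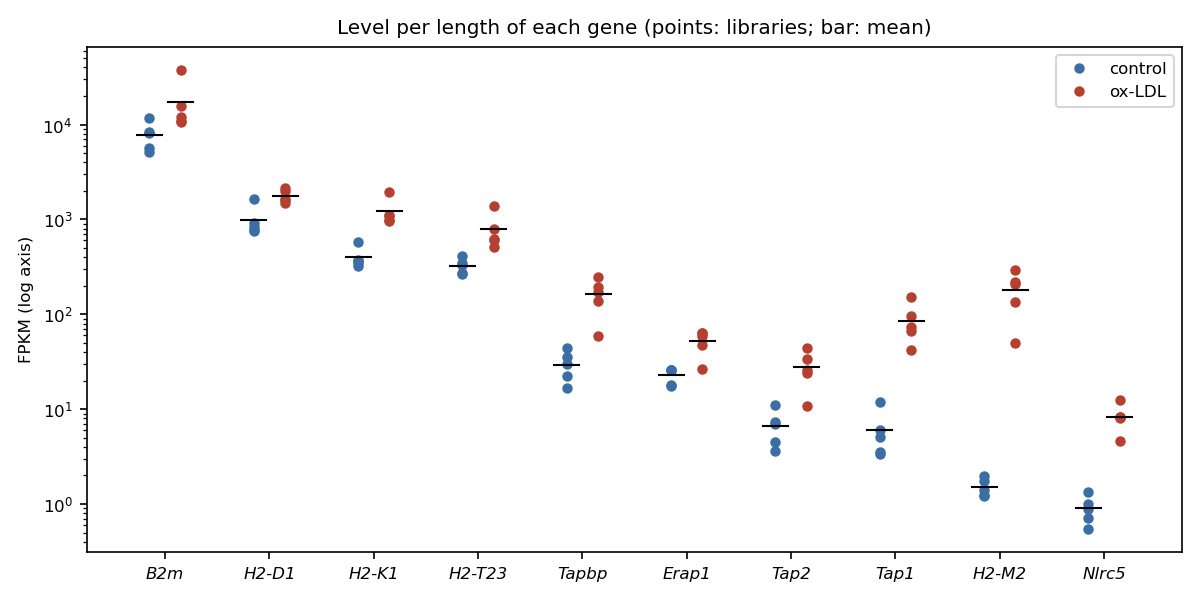
FPKM on a log axis for each gene, ordered by the control mean, with control libraries in blue, ox-LDL libraries in red and the group mean as a bar. H2-M2 moves from rank 9 in controls to rank 5 in the ox-LDL group, and the order of the 4 most abundant genes is the same in both groups.

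Other class I heavy chains rose alongside. From a list of 23 such genes, 16 had a row, 11 were tested, and 10 passed in the higher direction with none lower, with a median log2 fold change of 2.17. Over all genes tested, 9.4% were higher and 5.35% lower. No gene of this list, or of the peptide list that follows, was lower at an unadjusted p below 0.05 in edgeR or was called lower by DESeq2 or limma-voom. Genes of the H2-Q cluster, among them the Qa-2 genes H2-Q6 to H2-Q9, led the list: the log2 fold change was 6.32 for H2-Q9, 6.27 for H2-Q6, 6.16 for H2-Q7, 5.65 for H2-Q8 and 3.53 for H2-Q4 (edgeR adjusted p from 3.5e-05 to 0.0013). Counts of H2-Q7 ran from 11 to 172 in controls and from 976 to 5366 in ox-LDL libraries, and those of H2-Q4 from 273 to 698 and from 2738 to 5705. Control replicate 5 held the most control counts of all 4 Qa-2 genes, 172 for H2-Q7 against 11 to 28 in the other controls. Without it the log2 fold change was 7.46 for H2-Q7, 7.47 for H2-Q6, 7.48 for H2-Q9 and 6.24 for H2-Q8. H2-Q6, H2-Q8 and H2-Q9 reached 0 counts in a control library, so their fold changes also depend on how 0 is handled. These paralogs are close to identical in part: 27.0% of the 50-base windows of H2-Q7 and 23.2% of those of H2-Q6 occur in other transcripts, mostly in each other. H2-Q8 and H2-Q9 had no transcript in the set searched, so windows shared with them alone are not counted in these shares. The division of reads among these paralogs is uncertain. Cd1d1, which presents lipids to NKT cells, rose by 2.17 on the log2 scale (edgeR adjusted p = 8.8e-05). Mr1, which presents vitamin metabolites to MAIT cells, had a log2 fold change of 0.24 (edgeR adjusted p = 0.684). Calls on this list numbered 7 to 10 when single libraries were left out.

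Genes that make peptides split into those that rose and those that did not pass. Of 11 tested, 5 rose: Psme2 by 2.75 and Psme1 by 1.90 on the log2 scale, which encode the PA28 cap of the proteasome, Psmb9 by 2.34 and Psmb10 by 1.94, which encode immunoproteasome subunits, and Lap3 by 1.41, a leucine aminopeptidase. Without ox-LDL replicate 2 the log2 fold changes were 2.12 for Psme2, 1.41 for Psme1, 1.91 for Psmb9 and 1.46 for Psmb10, all still past the threshold. The 5 of 11 called higher stand beside 9.4% of all genes tested, and none was called lower, beside 5.35%. The median of the list was 0.80, and the lowest was Blmh, a cytosolic peptidase, at -0.09 (edgeR adjusted p = 0.752). Psmb8, the third immunoproteasome subunit, was not tested, since its row held at most 19 counts in controls and 23 in ox-LDL libraries. Whether the counting missed reads of this gene was not tested, so these counts do not show that it was not expressed. The number called fell to 2 when control replicate 2, 3, 4 or 5 or ox-LDL replicate 5 was left out and rose to 6 without ox-LDL replicate 2.

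Of 11 genes of folding and loading tested, 1 rose and none fell, with a median log2 fold change of 0.00189. That 1 gene is 9.09% of the list, near the 9.4% higher among all genes tested, of which 5.35% were lower. The gene that rose was Tapbpl, which encodes the peptide editor TAPBPR, from 8.08 to 11.3 CPM in controls to 56.2 to 88.6 CPM in ox-LDL libraries (log2 fold change 2.96 ± 0.19, edgeR adjusted p = 3.0e-06). Calreticulin (Calr) and calnexin (Canx), which hold the folding heavy chain, had log2 fold changes of -0.16 and -0.03, and Pdia3, the disulfide isomerase of the loading complex, had the lowest at -0.42 (edgeR adjusted p = 0.138). At an unadjusted p below 0.05 no gene of the list was lower in edgeR, while DESeq2 called 1 lower and limma-voom none. Without ox-LDL replicate 2, Sec61b, a subunit of the protein translocation channel, had the lowest log2 fold change at -1.05 (edgeR adjusted p = 0.00173, against -0.28 and 0.676 with all libraries), and this was the 1 gene called lower.

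Among transcriptional regulators, 7 of 17 tested rose and none fell (median log2 fold change 0.97), beside 9.4% higher and 5.35% lower among all genes tested. At an unadjusted p below 0.05, 1 regulator was lower in edgeR, and DESeq2 and limma-voom called none lower. Without ox-LDL replicate 2, edgeR called 9 higher and 1 lower. Irf1, an interferon and NF-kappa B target that binds class I promoters, rose from 18.4 to 31.7 CPM in controls to 263 to 1168 CPM in ox-LDL libraries (log2 fold change 4.70 ± 0.41, edgeR adjusted p = 2.1e-05). Irf8, a transcription factor of myeloid cells, rose by 3.24 and Stat2, a component of the type I interferon response, by 2.10 on the log2 scale. Ciita, the class II transactivator, rose by 1.97 from 1.17 to 2.40 CPM in controls to 2.09 to 9.81 CPM in ox-LDL libraries, with overlapping groups. Rfx5, a subunit of the complex on which NLRC5 and CIITA dock, rose by 1.16 (edgeR adjusted p = 0.00511), and this call was lost in 10 of its 22 alternatives. Rfxap, another subunit, had a log2 fold change of -0.13, and Nfyc, a CCAAT-binding subunit, had the lowest of the list at -0.45 (edgeR adjusted p = 0.0995).

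On the interferon side, 4 of 9 tested genes rose and 1 fell, beside 9.4% higher and 5.35% lower among all genes tested. Without ox-LDL replicate 2, 5 rose and 1 fell. Ifng, encoding interferon gamma, had 5 counts in control replicate 5 and 0 in the other 4 controls. It had 31, 168, 48, 56 and 405 counts in ox-LDL replicates 1 to 5. Its fitted log2 fold change of 7.41 (edgeR adjusted p = 8.6e-04) depends on how 0 is handled. It was 10.46 without control replicate 5, 6.66 without ox-LDL replicate 5, and ran from 2.42 to 10.46 over its 21 alternatives. Of the T and NK cell markers, Cd8a had 0 counts in every control and 1, 2, 0, 0 and 4 in the ox-LDL libraries, Cd3d had 0 to 3 and 0 to 4, Cd3g 0 to 3 and 0 to 3, and Cd3e and Prf1 at most 1. Cd4 had 6 to 19 counts in controls and 0 to 7 in ox-LDL libraries, Klrb1c 5 to 14 and 0 to 1, and Ncr1 0 to 2 and 0 to 3. The part of T and NK cells in the Ifng counts was not tested. Socs1, a feedback inhibitor of interferon signaling, rose by 5.12 (5.73 without control replicate 5 and 4.24 without ox-LDL replicate 5), Jak2 by 1.64 and Ifnar2 by 1.58 on the log2 scale. Ifngr1, the ligand-binding chain of the interferon gamma receptor, fell by 1.66 on the log2 scale, from 139 to 207 CPM in controls to 40.0 to 65.9 CPM in ox-LDL libraries (edgeR adjusted p = 1.8e-04).

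MHC class II genes, tested for contrast, gave no call in either direction among 7 tested, beside 9.4% higher and 5.35% lower among all genes tested. The median log2 fold change of these 7 was 0.53. In edgeR 1 of them was higher and none lower at an unadjusted p below 0.05, and DESeq2 and limma-voom called none. None of these 7 was called in any of the 22 alternative fits. In edgeR, 1 listed gene outside the 7 was called higher with no filter on low counts, and 1 when control replicate 5 or ox-LDL replicate 3 was left out. H2-Ab1 had the highest log2 fold change at 1.49 (edgeR adjusted p = 0.0608), with 33.7 to 99.4 CPM in controls and 41.8 to 358 CPM in ox-LDL libraries. Ctss, the protease that processes the invariant chain, had the lowest at -0.02. Without ox-LDL replicate 2 the list median was -0.32, H2-Ab1 was at 1.00, H2-DMb1, a peptide loading chaperone of class II, was the lowest at -0.69 (edgeR adjusted p = 0.046), and H2-Aa went from 0.59 to -0.32. Whether class I and class II genes differed in response was not tested.

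**Figure D5:**
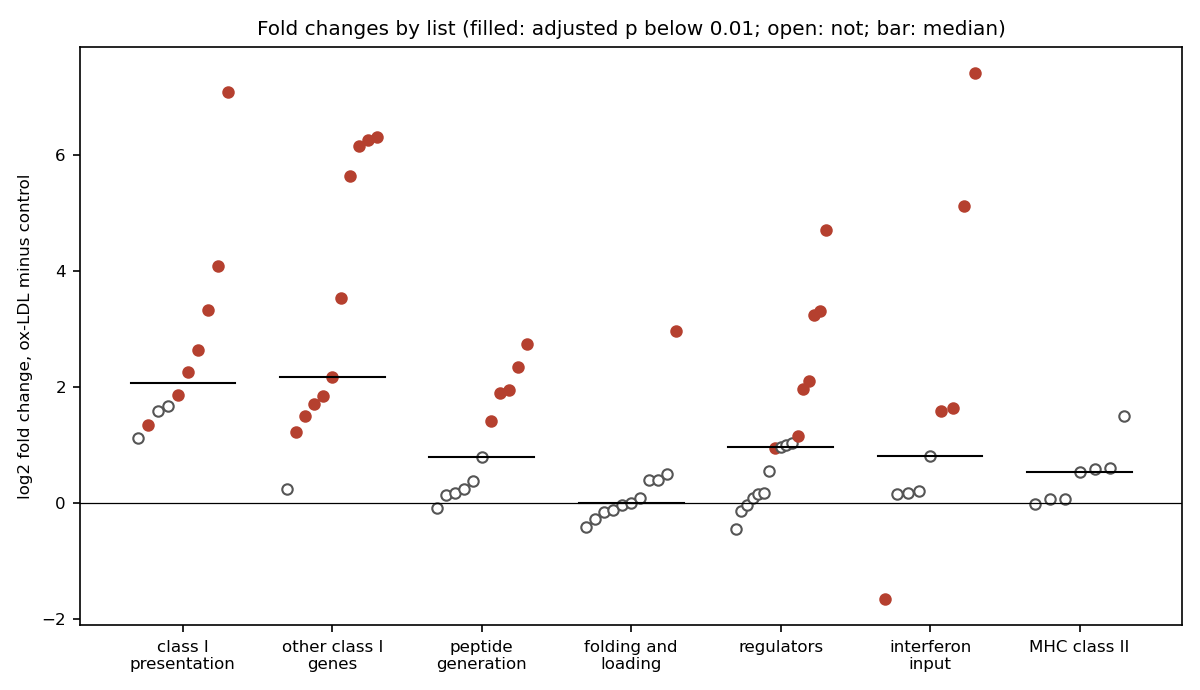
Log2 fold change, ox-LDL minus control, of each tested gene by list, with filled points for an edgeR adjusted p below 0.01, open points for the rest and a bar at the list median. Filled points make up 7 of 10 class I presentation genes, 10 of 11 other class I genes, 1 of 11 folding and loading genes and none of the 7 class II genes. Among all genes tested, 9.4% were higher and 5.35% lower.

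Of the 10 genes, 7 lie on chromosome 17, and 6 of these lie in the stretch from H2-K1 to H2-M2 (chr17:34132962-37620497), with Tapbp just before it. The stretch held 141 genes with a row, of which 88 were tested, 26 were higher (29.5%) and none lower in edgeR. At an unadjusted p below 0.05, 46 were higher and 6 lower in edgeR, while DESeq2 called 33 higher and 3 lower and limma-voom 26 higher and none lower. Leaving out ox-LDL replicate 2 gave 31 higher and 4 lower in edgeR. Without the class I presentation genes, 22 of 82 were higher. Of the 68 genes on none of the lists above, 13 were higher (19.1%), against the 9.4% of all genes tested. These were led by Ubd, a ubiquitin-like modifier induced by interferon gamma and TNF, at a log2 fold change of 8.97, then by complement factor B (Cfb) at 6.72 and the heat shock genes Hspa1a at 5.99 and Hspa1b at 5.94, near-identical copies whose reads may be shared. Ubd was at 7.12 without ox-LDL replicate 2 and 9.87 without control replicate 5, Cfb at 6.06 and Hspa1a at 5.27 without ox-LDL replicate 5, and Hspa1b at 7.78 without control replicate 5. Tnf, the cytokine gene of the same stretch, rose by 4.89 on the log2 scale.

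Across the 10 libraries, the genes with a pattern most like that of Nlrc5 were Fpr2 and Clec4e, which encode receptors of myeloid cells, Mfsd7a, Gm34643 and Creb5 (Pearson's r of log2 CPM 0.992, 0.991, 0.992, 0.990 and 0.989). Of the class I presentation genes, Tap1 was nearest, at rank 16 with an r of 0.985, then Tapbp at rank 52 and Erap1 at rank 54. B2m was the farthest, at rank 3359 with an r of 0.554. The libraries fall into separate groups for Nlrc5, so r over all of them mostly describes the step between the groups, and with 5 libraries in each group it was not computed within them.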

How the data were processed

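Per the labels and the study's methods, RNA of 10 libraries was sequenced on a BGISEQ-500. The submitters' processing notes name mm9 as the genome, with HISAT2 (version 2.0.5), SAMtools (version 1.4) and StringTie (version 1.3.3.13) as tools. The tool that counted reads and its use of strand are not given in the sources used here. The authors deposited estimated counts per gene (13.6% of values not whole) and, per library, values that the counts and totals show to be FPKM.

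Estimated counts were rounded, 9788 circular RNA rows were dropped, genes were kept by filterByExpr and TMM factors were computed (R 4.3.3, edgeR 4.0.16). Groups followed the labels. The edgeR quasi-likelihood test with robust estimates gave log2 fold changes, SEs (fold change over the root of F) and Benjamini-Hochberg adjusted p over 12654 genes, with a call at adjusted p below 0.01. Ratios were taken from FPKM with exact permutation tests. The steps were tested on simulated data. No 2 libraries of a group were duplicates. Alternatives included DESeq2 1.42.0, limma 3.58.1 (pseudocount 1 for FPKM), other scalings and filters, a gene length correction and single libraries left out. Genes and lists were chosen with earlier results of these data known. All 10 genes are named, and from each list up to 6 called genes with the largest changes plus the highest and lowest. Names outside that rule (Psmb8, Calr, Canx, Rfxap, Sec61b, H2-DMb1, H2-Aa, single markers, genes of the H2 stretch) were chosen after their values were seen. The values of 1 listed gene are not reported here. Positions come from GENCODE vM1 on mm9. The p-values set the difference between groups against the spread between libraries. Totals were 19257131 to 20687289 counts, and precision is lowest for genes with few counts (H2-M2 and Ifng in controls).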

Additional observations from a re-analysis of the deposited data

Results flagged for a closer look

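Of the 26 groups of 5 values examined (the 10 genes and the 3 ratios in each group), 4 held a library far from the rest. Its gap to the nearest neighbour was over 0.71 of the group's whole range. About 1.3 such groups would arise by chance if values were normal and groups independent. The CPM values were not log-transformed and the groups share the same libraries, so that number may not apply here. In the ox-LDL group, replicate 2 held 2830.25 CPM of H2-T23 against 1137 CPM in the next library (a gap of 0.749 of the range) and 46992 CPM of B2m against 13559 CPM in the next (0.837). Tap1 stood out in replicate 5 of both groups, at 29.3 CPM against 14.5 CPM in the controls (0.75) and at 509.9 CPM against 244 CPM in the ox-LDL group (0.788). The causes were not tested.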

How the results depend on the processing

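All 220 combinations of the 10 class I presentation genes with 22 alternatives gave a positive log2 fold change. In 211 of them the gene stayed on the same side of the threshold, and in 9 a gene that had not passed came past it: H2-D1 in 3, H2-T23 in 5 and B2m in 1. The number of these genes called was 7 to 10 across other tools, scalings, filters, rows, the length correction and libraries left out, 9 at an adjusted p below 0.05 and 5 with an absolute log2 fold change above 2. The number without overlap between groups was 6 in CPM by library size alone and 7 in FPKM, where Tap2 also overlapped. The genes on the other 6 lists gave 27 calls higher and 1 lower, 15 higher and 0 lower with an absolute log2 fold change above 2, 18 to 31 higher and 1 to 3 lower (3 without ox-LDL replicate 2) when single libraries were left out, 2 lower in DESeq2 and 3 lower without both control replicate 5 and ox-LDL replicate 2. The log2 ratio of H2-K1 to B2m ran from 0.40 to 0.96 (0.3955 to 0.9644) over libraries left out. With the replicate block, 7 class I presentation genes and 19 listed genes were called higher, and peptide generation fell from 5 calls to 1. Whether replicate numbers pair the samples was not settled, since the correlations of same-numbered deviations were mixed. They were 0.0238, -0.272, 0.443, -0.285 and 0.411. Replicates 1, 2 and 4 correlated better with another number, and replicates 3 and 5 best with their own. The median log2 fold change of all genes was 0.0966, but -0.0484 with upper-quartile scaling, -0.092 with library size alone and 0.269 with no filter on low counts.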
